A study of Mus musculus with 14 samples.

Results

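The 9 genes described here mark B cells and the chemokine and lymphotoxin signals that build lymphoid tissue. They were chosen by name: Ms4a1, Cd79a, Cd79b, Cr2, Cxcl13, Cxcr5, Ltb, Lta and Ccl19. Each was found among the 19938 genes measured, which gives 9 of 19938. Only Ccl19 had several rows (5), and the row with the highest mean over the 14 arrays was kept.

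B cells recognise antigen through a surface receptor whose signalling chains are encoded by Cd79a and Cd79b, and mature B cells also carry CD20 (Ms4a1) and the complement receptor CD21 (Cr2). In lymph nodes and spleen, stromal cells release CXCL13, which draws B cells bearing CXCR5 into follicles, and CCL19, which draws T cells and mature dendritic cells bearing CCR7 into the zones next to them. Lymphotoxin, built from the products of Lta and Ltb, sits on the surface of lymphocytes and acts on stromal cells through the lymphotoxin β receptor and the non-canonical NF-κB pathway, which maintains the production of these chemokines. The same signals drive lymphoid aggregates in chronically inflamed organs, and infiltrated islets of autoimmune diabetes are a known site of them.

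Gene expression was measured on 14 Affymetrix arrays of isolated pancreatic islets from untreated mice 11 weeks old, all on a mixed C57BL/6 and NMRI background. The 5 control arrays are of mice labelled only as control. The 4 Pdx-1+/- arrays are of mice that carry Pdx-1-tTA, a driver allele that takes away 1 functional copy of Pdx-1, the transcription factor β-cells depend on. The 5 IKK2-CApdx-1 arrays, here called IKK2-CA, are of diabetic mice in which the same driver makes β-cells express constitutively active IKK2, the kinase that switches on NF-κB, so both transgenic groups share the loss of Pdx-1. Islets hold β-cells, other endocrine cells, vessels and resident leukocytes, and the arrays read the whole mixture. No label ties an array to 1 mouse or to a pool, so the p-values below measure the spread between arrays, which may be technical.

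Medians over all genes were 6.45 to 6.55 on the log2 scale. Normalization brings medians together, so they do not show that the samples were alike. The islet hormone gene Ins2 read between 12.3 and 12.7 on all arrays, near the top of the scale. Over 11 islet endocrine genes the mean deviation from the mean of all arrays differed more. It ran from −0.07 to 0.47 in control, −0.42 to 0.15 in Pdx-1+/- and −0.61 to 0.15 in IKK2-CA islets, lowest on IKK2-CA array 3. Genes of neighbouring tissues set some arrays apart. IKK2-CA array 5 was 2.20 above the mean of all arrays over 10 adipocyte genes. Pdx-1+/- array 4 was 3.23 above it over 12 intestinal genes, and control array 3 1.52. The members' main differences and the counts of each list that passed are also given without IKK2-CA array 5, or without it and Pdx-1+/- array 4, below or with the limits at the end. With 4 or 5 arrays a group, their number limits how precisely a difference is known.

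Promoter windows were at hand for 6 of the 9 genes in the RefSeq table of build GRCm38.p6. The 250 bases before the start are shown for Ccl19 and Ltb, the genes with the largest IKK2-CA differences relative to their error, and for Cxcl13, the chemokine with the widest spread between arrays. They are written 5′ to 3′ along the gene, and capitals mark matches to the κB consensus, the DNA motif that NF-κB dimers bind.
Ccl19 (chr4:42756366-42756615, minus strand): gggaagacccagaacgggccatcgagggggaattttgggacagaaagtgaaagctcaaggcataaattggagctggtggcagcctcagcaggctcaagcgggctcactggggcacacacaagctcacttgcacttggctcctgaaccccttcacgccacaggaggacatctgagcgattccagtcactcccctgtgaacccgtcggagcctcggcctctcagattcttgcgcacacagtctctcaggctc
Ltb (chr17:35194257-35194506, plus strand): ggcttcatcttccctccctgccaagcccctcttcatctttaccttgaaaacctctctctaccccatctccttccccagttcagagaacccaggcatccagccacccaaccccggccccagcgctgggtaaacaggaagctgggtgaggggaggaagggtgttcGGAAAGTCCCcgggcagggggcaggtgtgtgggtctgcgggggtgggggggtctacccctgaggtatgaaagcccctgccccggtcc
Cxcl13 (chr5:95956689-95956938, plus strand): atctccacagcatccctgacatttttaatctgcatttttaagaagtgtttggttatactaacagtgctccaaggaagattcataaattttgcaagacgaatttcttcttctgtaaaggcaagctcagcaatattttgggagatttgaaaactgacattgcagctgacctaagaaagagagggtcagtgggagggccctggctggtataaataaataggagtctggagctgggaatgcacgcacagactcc
The Ltb window holds 1 match, GGAAAGTCCC, read on the opposite strand, whose first base lies 87 bases before the start. The other 5 windows, those of Ccl19, Cxcl13, Cd79a, Cr2 and Lta, hold none. Over all 32841 windows of this length, 7.25% hold at least 1 match on either strand. A looser motif, GGG and CC with any 5 bases between them on either strand, which takes in every match of the first, was found in all 6 windows and in 45.8% of all windows. A match is a run of letters and not a measured binding site, and the absence of one from this window says nothing about NF-κB acting elsewhere on the gene.

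Ccl19 was the member that rose in IKK2-CA islets. Its control arrays read 7.44, 7.30, 7.29, 7.73 and 7.50 in array order, on the log2 scale of the robust multichip average (RMA), as do all signals below. The Pdx-1+/- arrays read 8.01, 7.72, 7.32 and 7.31, and the IKK2-CA arrays 8.54, 8.27, 9.32, 8.82 and 9.78. Every IKK2-CA array lay above every array of both other groups, and the lowest, array 2, was 8.27 against a highest of 8.01 on Pdx-1+/- array 1.

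Against control the difference was log2 1.49, or 2.81-fold (SE 0.24, 95% interval 0.98 to 2.00, limma adjusted p = 0.00716, n = 5 and 5). Of the 9 members, 1 passed an adjusted p of 0.05 here, beside 2.25% of all 19938 genes, and 1 had no overlap with every IKK2-CA array on the high side, beside 1.86%. None had every IKK2-CA array on the low side, beside 2.34% of all genes. Without IKK2-CA array 5 and Pdx-1+/- array 4 the difference was log2 1.28 (limma adjusted p = 0.00348). The call held under each of the 24 alternatives tried, with log2 1.15 to 1.66.

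Against Pdx-1+/-, the group that shares the driver allele, Ccl19 differed by log2 1.35, or 2.55-fold (SE 0.25, 95% interval 0.81 to 1.89), and missed the threshold (limma adjusted p = 0.0707, n = 5 and 4). In this comparison 0 of 9 members passed by limma and 2, Ccl19 and Ltb, had an unadjusted p under 0.05. Ccl19 was also the 1 member whose IKK2-CA arrays all lay above the Pdx-1+/- arrays, beside 1.72% of all genes. Over all genes 0.0752% passed, and 7.02% had an unadjusted p under 0.05. Ccl19 passed once IKK2-CA array 2 (log2 1.52, limma adjusted p = 0.031) or array 5 (log2 1.14, limma adjusted p = 0.0302) was left out. It did not pass without array 5 and Pdx-1+/- array 4 together (log2 1.05, limma adjusted p = 0.0849). As the IKK2-CA mice were diabetic, active IKK2 and diabetes cannot be told apart in either comparison.

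The 5 rows of Ccl19 gave nearly the same picture. Their IKK2-CA means were 8.74 to 8.94 and their differences from control log2 1.35 to 1.51, and the 2 highest rows held the same mean in each group. RefSeq lists pseudogenes with the Ccl19 name, and it was not tested whether the probes tell these copies from the gene, so the rows are not separate evidence.

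**Figure D1:**
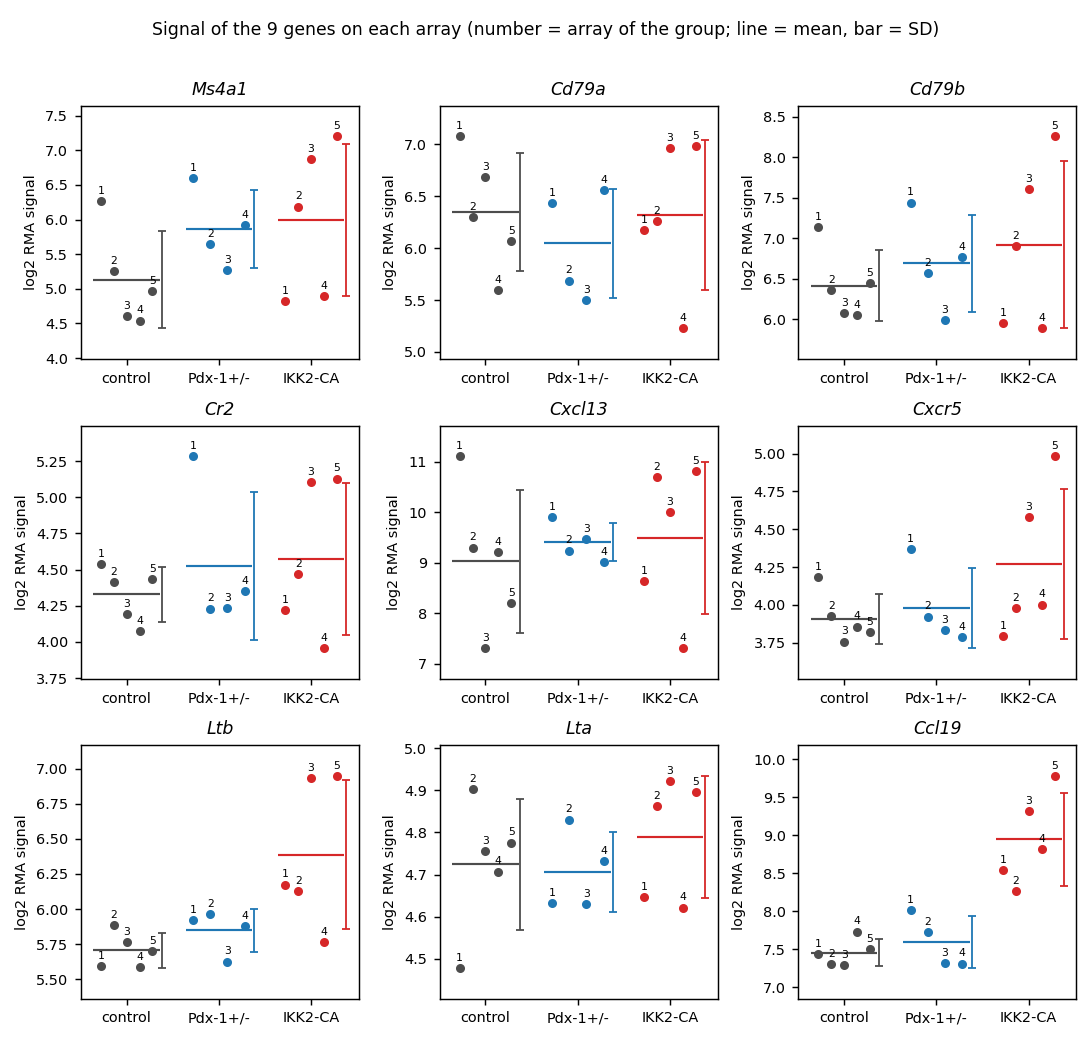
Signal of the 9 genes on each array, as log2 RMA signal on a separate scale for each gene. Points are arrays with their number in the group, horizontal lines are group means and bars are SD. Ccl19 separates the IKK2-CA arrays (8.27 to 9.78) from all others (7.29 to 8.01), while the B-cell genes overlap between groups.

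Ltb, the membrane-anchoring chain of lymphotoxin, was higher on most IKK2-CA arrays and did not pass. It read 5.59, 5.88, 5.77, 5.59 and 5.70 on the control arrays and 5.92, 5.97, 5.63 and 5.88 on the Pdx-1+/- arrays. The IKK2-CA arrays read 6.17, 6.13, 6.93, 5.76 and 6.95, so 4 of 5 lay above every array of both other groups and array 4 lay among them. The difference from control was log2 0.68 (SE 0.19, 95% interval 0.27 to 1.09, limma adjusted p = 0.0833), and from Pdx-1+/- log2 0.54 (SE 0.20, 95% interval 0.10 to 0.98, limma adjusted p = 0.578). Without IKK2-CA array 4 the first of these passed (log2 0.84, limma adjusted p = 0.0153), and with arrays weighted by their quality it also did (log2 0.53, limma adjusted p = 0.039).

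Lta, the chain that Ltb pairs with and that also forms a secreted trimer, was nearly flat. Its 14 values ran from 4.48 on control array 1 to 4.92 on IKK2-CA array 3, and the groups overlapped throughout. IKK2-CA differed from control by log2 0.07 (SE 0.09, 95% interval −0.13 to 0.26, limma adjusted p = 0.819). Its mean level lay at the percentile 22.3 of all genes, a rank of signals and not of transcript numbers, and small changes of genes this dim can be missed. Tnf lies between Lta and Ltb on the chromosome in RefSeq and encodes the related cytokine. It differed between IKK2-CA and control by log2 0.61 (SE 0.22, limma adjusted p = 0.167).

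Cxcl13, the B-cell attracting chemokine, varied more between arrays than any other member, and its high arrays were found in each group. The control arrays read 11.11, 9.30, 7.31, 9.21 and 8.21, which holds the highest value of all 14 on array 1. The Pdx-1+/- arrays read 9.90, 9.24, 9.47 and 9.01, and the IKK2-CA arrays 8.63, 10.70, 9.998, 7.30 and 10.81. IKK2-CA arrays 2, 3 and 5 were high, array 4 was the lowest of the 14, and no pair of groups separated.

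Its group means were 9.03 ± 1.42 (SD, n = 5) in control, 9.41 ± 0.38 (SD, n = 4) in Pdx-1+/- and 9.49 ± 1.50 (SD, n = 5) in IKK2-CA islets, an order in which no neighbours differed beyond their spread. The IKK2-CA difference from control was log2 0.46 (95% interval −1.03 to 1.95, limma adjusted p = 0.84), an interval wide enough to hold a change of more than 1 log2 in either direction. With 1 array left out it ran from log2 0.03, without control array 3, to 1.01, without IKK2-CA array 4. From Pdx-1+/- it was log2 0.08 (95% interval −1.50 to 1.66, limma adjusted p = 0.997) and turned to −0.38 without IKK2-CA array 5 and Pdx-1+/- array 4. Cxcl13 and Ccl19 are thus both chemokines of lymphoid stroma with unlike array patterns here. On IKK2-CA array 4, Cxcl13 stood 2.00 below its mean over the 14 arrays and Ccl19 0.80 above its own.

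Cxcr5, the receptor for CXCL13 on B cells and follicular helper T cells, was dim throughout, with a mean level at the percentile 13.2 of all genes. The control arrays read 3.76 to 4.18 with a median of 3.86, and the Pdx-1+/- arrays 4.37, 3.92, 3.84 and 3.79. IKK2-CA arrays 3 and 5 read 4.58 and 4.98, the highest of the 14, and arrays 1, 2 and 4 read 3.80, 3.98 and 4.00, within the range of control. The difference from control was log2 0.36 (SE 0.20, 95% interval −0.06 to 0.78, limma adjusted p = 0.417).

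Ms4a1, which encodes CD20, had the largest difference between IKK2-CA and control among the 5 B-cell members and was split within every group. The control arrays read 6.27, 5.26, 4.61, 4.54 and 4.97. The Pdx-1+/- arrays read 6.60, 5.65, 5.28 and 5.92, and the IKK2-CA arrays 4.83, 6.19, 6.87, 4.89 and 7.20. IKK2-CA arrays 3 and 5 lay above every other array, array 2 lay close to control array 1, and arrays 1 and 4 lay below every Pdx-1+/- array.

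Neither IKK2-CA comparison passed for Ms4a1. Against control it was log2 0.87 (SE 0.47, 95% interval −0.13 to 1.86, limma adjusted p = 0.407) and against Pdx-1+/- log2 0.13 (SE 0.49, 95% interval −0.92 to 1.19, limma adjusted p = 0.992). The second turned to log2 −0.17 without IKK2-CA array 5. The first fell to log2 0.57 without that array (limma adjusted p = 0.599). In islets read as a mixture, a change in the number of B cells and a change in the RNA of each cannot be told apart.

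Cd79b and Cd79a, the signalling chains of the B-cell receptor, were high on the same IKK2-CA arrays. Cd79b read 7.61 and 8.26 on arrays 3 and 5, 6.90 on array 2, and 5.95 and 5.89 on arrays 1 and 4, which were the lowest of all 14. The control arrays read 7.14, 6.36, 6.08, 6.06 and 6.44, and the Pdx-1+/- arrays 7.44, 6.57, 5.99 and 6.76. Array 1 was thus the high one in both of those groups. IKK2-CA differed from control by log2 0.50 (95% interval −0.38 to 1.39, limma adjusted p = 0.639). With 1 array left out this ran from log2 0.17, without IKK2-CA array 5, to 0.76, without IKK2-CA array 4.

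Cd79a was highest on control array 1 (7.08), followed by IKK2-CA arrays 5 (6.98) and 3 (6.96). IKK2-CA array 4 was the lowest of the 14 at 5.23. The group means were 6.35 ± 0.57 (SD, n = 5) in control, 6.05 ± 0.53 (SD, n = 4) in Pdx-1+/- and 6.32 ± 0.72 (SD, n = 5) in IKK2-CA islets. IKK2-CA and control differed by log2 −0.02 (95% interval −0.76 to 0.71, limma adjusted p = 0.987), the smallest difference among the members.

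Cr2, which in mice encodes the complement receptors CD21 and CD35 of B cells and follicular dendritic cells, had its highest value outside the IKK2-CA group. Pdx-1+/- array 1 read 5.28, against 4.23, 4.23 and 4.35 on the other arrays of its group. IKK2-CA arrays 3 and 5 followed at 5.10 and 5.13, arrays 1, 2 and 4 read 4.22, 4.47 and 3.96, and control ran from 4.07 to 4.54. IKK2-CA differed from control by log2 0.25 (95% interval −0.27 to 0.76, limma adjusted p = 0.717).

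**Figure D2:**
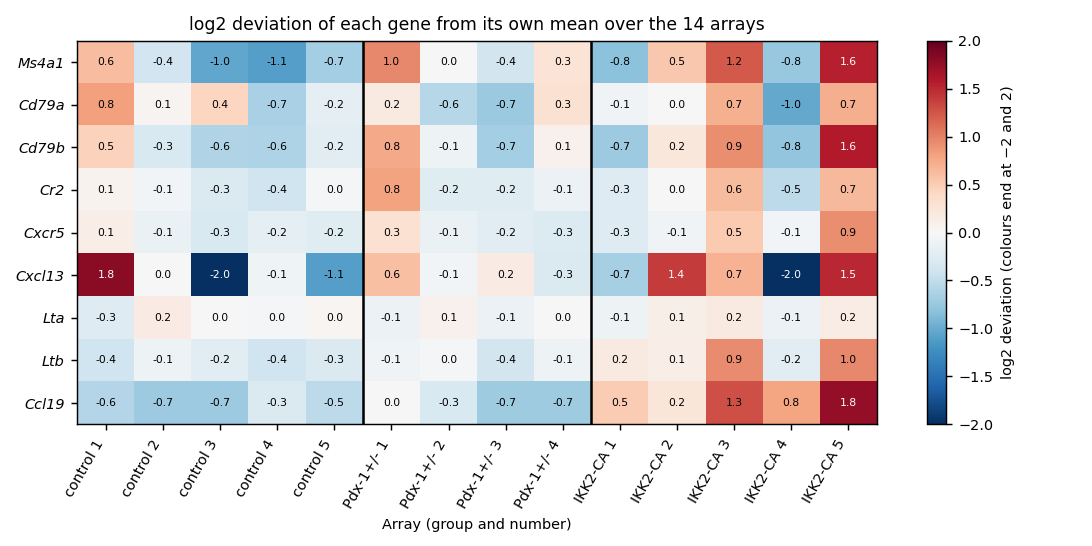
Deviation of each gene from its own mean over the 14 arrays, in log2 units, with arrays in columns by group and genes in rows by role. Red is above the mean and blue below. IKK2-CA arrays 3 and 5 are red for all 9 genes, array 4 is blue for all but Ccl19, and control array 1 and Pdx-1+/- array 1 are red for the upper 6 rows.

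Read array by array, IKK2-CA arrays 3 and 5 carried the B-cell genes. IKK2-CA array 5 held the highest value of the 14 for 5 of 9 members and array 3 for 1, and both were among the 3 highest for 8 of 9 members (all but Cxcl13). Both arrays were among the 3 highest for 8.69% of all genes, and array 5 was the highest for 14% of all genes. IKK2-CA array 4 held the lowest value for 4 members (Cd79a, Cd79b, Cr2 and Cxcl13), beside 5.94% of all genes. These arrays were singled out after their values were seen, so the counts describe them and test nothing.

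Averaged over Ms4a1, Cd79a, Cd79b, Cr2 and Cxcr5, the deviation from the mean of the 14 arrays was 1.09 on IKK2-CA array 5 and 0.80 on array 3. It was 0.14 on array 2, −0.43 on array 1 and −0.63 on array 4. Pdx-1+/- array 1 (0.60) and control array 1 (0.42) were the next highest after IKK2-CA arrays 5 and 3, and the remaining arrays of those groups ran from −0.60 to 0.06. The SD between arrays was widest in IKK2-CA islets for 8 of 9 members (all but Lta), beside 41.9% of all genes. IKK2-CA array 5 is the array with the adipocyte genes, while array 3 lay at −0.27 for them. Over 11 islet endocrine genes array 3 was the lowest of the 14 (−0.61), and over 9 acinar genes it ranked 3 of 14 (0.21). Array 5 stood at −0.29 and −0.45 for these 2 lists. The part of other tissue in the B-cell genes was not tested.

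**Figure D3:**
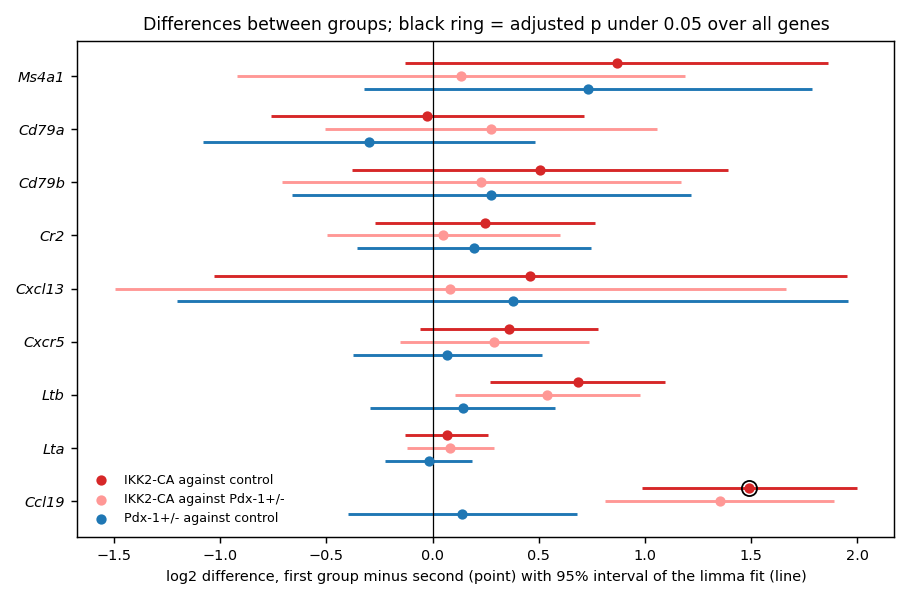
Differences between groups for the 9 genes, in log2 units on the x axis, with points for the fitted difference and lines for its 95% interval. The ring marks Ccl19 in IKK2-CA against control (log2 1.49), the only adjusted p under 0.05. The intervals of Cxcl13 are the widest, and only those of Ccl19 and Ltb in the IKK2-CA comparisons lie wholly above 0.

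As a set, the members lay higher in IKK2-CA islets, mostly by amounts within the spread between arrays. Against control 8 of 9 differences were positive with a median of log2 0.46, while 46.4% of all genes were positive with a median of log2 −0.01. Against Pdx-1+/- 9 of 9 were positive with a median of log2 0.23, beside 45% and −0.01 for all genes. These comparisons share the IKK2-CA arrays. Leaving out IKK2-CA array 5 and Pdx-1+/- array 4 turned 4 of the 9 differences from Pdx-1+/- negative, those of Ms4a1 (log2 −0.15), Cd79b (−0.08), Cr2 (−0.145) and Cxcl13 (−0.38).

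Between Pdx-1+/- and control islets no member passed. Of the 9 members 0 passed between Pdx-1+/- and control by limma, and 0 had an unadjusted p under 0.05, beside 0.0953% and 4.71% of all genes. No member had every Pdx-1+/- array above every control array or below it, beside 0.481% and 1.4% of all genes. The differences ran from log2 −0.30 for Cd79a to 0.73 for Ms4a1, which was higher than the control mean on 4 of 4 Pdx-1+/- arrays (95% interval −0.32 to 1.79, limma adjusted p = 0.999). Ccl19 differed by log2 0.14 (95% interval −0.40 to 0.68, limma adjusted p = 0.999), and its groups overlapped.

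Most other genes of the B-cell lineage followed the same arrays. Of 18 measured, 0 passed by limma in either IKK2-CA comparison, 7 had an unadjusted p under 0.05 against control and 3 against Pdx-1+/-. Over all genes 15.7% and 7.02% had one, and these shares stand behind the like counts of each list below. All 18 were positive in IKK2-CA against control, with a median of log2 0.30, but all 18 were also positive in Pdx-1+/- against control, with a median of log2 0.13. IKK2-CA against Pdx-1+/- gave 16 of 18 and a median of log2 0.16. Without IKK2-CA array 5, 5 had an unadjusted p under 0.05 against control, beside 15% of all genes, and 0 passed by limma. Cd72, a co-receptor of B cells that some myeloid cells also carry, read 8.19 and 9.001 on IKK2-CA arrays 3 and 5 and 6.38 to 6.82 on arrays 1, 2 and 4. The other groups ran from 5.69 to 6.41, and the difference from control was log2 1.39 (SE 0.41, limma adjusted p = 0.0943), and log2 0.99 without IKK2-CA array 5 (limma adjusted p = 0.134).

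H2-Ob, a chain of the MHC class II regulator of B cells, was higher on each IKK2-CA array (6.42 to 7.81) than on any control array (5.67 to 6.21). Its difference from control was log2 0.96 (SE 0.24, limma adjusted p = 0.0528). The difference from Pdx-1+/- was log2 0.87 (SE 0.26, limma adjusted p = 0.344), and Pdx-1+/- array 1 read 6.59, above IKK2-CA arrays 1 and 4. H2-Ob read 6.43 and 6.42 on IKK2-CA arrays 1 and 4, which were low for Ms4a1 and Cd79b, so its pattern differed from theirs. Which cells carried H2-Ob was not tested. IKK2-CA arrays 3 and 5 were both among the 3 highest for 16 of these 18 genes, beside 8.69% of all genes and 11 of 12 T-cell genes. The exceptions in the B-cell list were Ebf1, at 8.56 on IKK2-CA array 3, and Vpreb3, at 5.18 on IKK2-CA array 5. The mean deviation over the list was 0.55 and 0.77 on those arrays, 0.23 on array 2, −0.07 on array 1 and −0.30 on array 4. Control ran from −0.31 to −0.12 and Pdx-1+/- from −0.22 to 0.18.

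Plasma cell genes were less uniform. Of 7 measured, 0 passed by limma in either IKK2-CA comparison and 2 had an unadjusted p under 0.05 in each, beside 15.7% of all genes against control and 7.02% against Pdx-1+/-. Jchain, which links secreted antibody into multimers, read 8.53, 7.62 and 7.43 on IKK2-CA arrays 3, 5 and 2, but 7.92 on control array 1, and differed from control by log2 0.59 (SE 0.68, limma adjusted p = 0.766) and by 0.39 without IKK2-CA array 5. Irf4, a transcription factor of plasma cells and of activated T and dendritic cells, stood at 8.42 on IKK2-CA array 5 and 6.10 to 6.30 on the other 4 arrays of the group. Its difference from control was log2 0.90 (SE 0.37, limma adjusted p = 0.236), and 0.45 without array 5 (limma adjusted p = 0.229). IKK2-CA arrays 3 and 5 were together among the 3 highest for 1 of 7 genes, beside 8.69% of all genes.

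Against control, the receptor for CCL19 rose beside its ligand. Ccr7 read 7.96, 7.88, 8.61, 8.14 and 9.31 on the IKK2-CA arrays, above every control array (6.40 to 7.10) and every Pdx-1+/- array (6.49 to 7.22). It was 3.01-fold higher than control (log2 1.59, SE 0.24, limma adjusted p = 0.0048) and also passed against Pdx-1+/- (log2 1.62, SE 0.26, limma adjusted p = 0.0257). It was 1 of 7 measured genes of homeostatic chemokines and their receptors to pass, in both IKK2-CA comparisons, and 0 fell. Over all genes 2.25% passed against control and 0.0752% against Pdx-1+/-. Ccr7 also passed in both without IKK2-CA array 5 (log2 1.36 and 1.39). The rows of the Ccl21 genes, whose products share CCR7 with CCL19, name several genes each and were not analysed here.

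Lymphotoxin and TNF family genes and the non-canonical NF-κB genes were positive without passing. Of 11 family genes all were positive in both IKK2-CA comparisons and 0 passed by limma (3 with an unadjusted p under 0.05 against control, beside 15.7% of all genes, and 4 against Pdx-1+/-, beside 7.02%). Ltbr, the receptor for the Lta and Ltb heterotrimer, differed from control by log2 0.16 (SE 0.10, limma adjusted p = 0.508). Cd40, a co-stimulatory receptor of B cells and dendritic cells, read 7.67 and 8.15 on IKK2-CA arrays 3 and 5 and 6.18 to 6.60 on the others, a difference of log2 0.96 (SE 0.30, limma adjusted p = 0.113). Tnfsf13b, which encodes the B-cell survival factor BAFF, differed by log2 0.62 (SE 0.23, limma adjusted p = 0.178).

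Of 6 non-canonical NF-κB genes all were positive, and 0 passed by limma (3 with an unadjusted p under 0.05 against control, beside 15.7% of all genes, and 4 against Pdx-1+/-, beside 7.02%). Nfkb2, whose product is processed to the p52 subunit, was higher on every IKK2-CA array (7.62 to 8.75) than on any control array (7.07 to 7.61), by log2 0.68 (SE 0.18, limma adjusted p = 0.0634). Birc3, an inhibitor of this pathway and an NF-κB target, differed by log2 0.67 (SE 0.20, limma adjusted p = 0.102). All 6 genes were highest on IKK2-CA array 5, and without it 5 of 6 were positive against control and 0 passed by limma.

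Vessel genes of lymphocyte entry included 2 that rose against control, of 9 measured, beside 0.682% of all genes. Of the 9, 7 were positive in this comparison, with a median of log2 0.43. The other 2, Chst4 and Cd34, were lower on average in IKK2-CA islets. Chst4 read 7.27 to 8.92 on the control arrays and 6.55 to 8.26 on the IKK2-CA arrays. Madcam1, the addressin of high endothelial venules in gut lymphoid tissue, read 8.81 and 8.56 on IKK2-CA arrays 3 and 5 and 6.30 to 6.50 on arrays 1, 2 and 4. It differed by log2 2.04 (SE 0.43, limma adjusted p = 0.0242) from control, whose arrays ran from 5.04 to 5.57. Vcam1, an adhesion molecule for lymphocytes, differed by log2 1.62 (SE 0.31, limma adjusted p = 0.0162). Without IKK2-CA array 5 both still passed, Madcam1 at log2 1.73 (limma adjusted p = 0.0441) and Vcam1 at log2 1.28 (limma adjusted p = 0.00445). Glycam1, of the same list, did not pass. It read 6.12 and 7.32 on IKK2-CA arrays 3 and 5, and 4.43 to 4.85 on the other arrays of all groups. Against Pdx-1+/- 0 of 9 passed by limma, and 4 had an unadjusted p under 0.05, beside 7.02% of all genes.

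Genes of follicular helper T cells and germinal centres gave 0 of 9 past the threshold by limma in either IKK2-CA comparison (4 with an unadjusted p under 0.05 in each, beside 15.7% of all genes against control and 7.02% against Pdx-1+/-). Gcsam, a protein of germinal centre B cells, was higher on every IKK2-CA array (4.93 to 6.30) than on any array of the other groups (4.41 to 4.89), by log2 0.75 from control (SE 0.21, limma adjusted p = 0.0833). Without IKK2-CA array 5 and Pdx-1+/- array 4 it passed at log2 0.51 (limma adjusted p = 0.0466). Gcsam read 5.15 and 4.93 on IKK2-CA arrays 1 and 4, which were low for Ms4a1 and Cd79b, so its pattern differed from theirs. Which cells carried Gcsam was not tested. Cd84, an adhesion receptor of B and T cells, differed by log2 0.81 (SE 0.31, limma adjusted p = 0.194), and by 0.43 without IKK2-CA array 5. Il21, the cytokine of follicular helper cells, stayed at a mean of 3.5 in IKK2-CA islets, a difference of log2 −0.0025 (SE 0.09, limma adjusted p = 0.995). Of 7 lymphatic vessel and stromal genes 0 passed by limma in either comparison (2 with an unadjusted p under 0.05 against control, beside 15.7% of all genes, and 1 against Pdx-1+/-, beside 7.02%), with Mfge8, also made by follicular dendritic cells, at log2 0.44 (SE 0.13, limma adjusted p = 0.0899). Pdpn, carried by lymphatic vessels and lymphoid stroma, was at log2 −0.16 from control (SE 0.39, limma adjusted p = 0.912). It read 8.09 to 9.06 on the IKK2-CA arrays and 8.34 to 9.23 on Pdx-1+/- arrays 1 to 3. Pdx-1+/- array 4, the array with the intestinal genes, read 6.69.

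Of the markers of other leukocytes, most of those of dendritic cells passed against control and none of those of T cells and myeloid cells did. The mean deviation over 12 T-cell genes was 0.75 and 0.94 on IKK2-CA arrays 3 and 5, 0.11 on array 2, −0.02 on array 1 and −0.26 on array 4. Control ran from −0.32 to −0.05 and Pdx-1+/- from −0.33 to −0.02. All 12 were positive against control and 0 passed by limma (8 with an unadjusted p under 0.05, beside 15.7% of all genes). Without IKK2-CA array 5, 11 of 12 were positive, 0 passed by limma and 5 had an unadjusted p under 0.05. Over 8 dendritic cell genes every IKK2-CA array (0.57 to 1.85) lay above every control (−0.72 to −0.30) and Pdx-1+/- array (−0.67 to −0.38). Of the 8, 7 passed the threshold against control, beside 2.25% of all genes, and 4 against Pdx-1+/-, beside 0.0752%. Without IKK2-CA array 5 these counts were 7 and 6. In that fit 7 had an unadjusted p under 0.05 in each comparison, beside 15% of all genes against control and 5.05% against Pdx-1+/-. With all arrays, the 1 of these 8 genes that did not pass against control was Zbtb46. It read 6.54 to 6.65 on the IKK2-CA arrays and 6.48 to 6.85 on the control arrays.

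Over 8 myeloid genes the groups overlapped, with IKK2-CA from −0.41 to 0.59, control from −0.44 to 0.15 and Pdx-1+/- from −0.17 to 0.19, and 0 passed by limma against control (1 with an unadjusted p under 0.05, beside 15.7% of all genes). IKK2-CA arrays 5, 3 and 2, in that order, were the highest 3 for the B-cell, T-cell and dendritic cell lists. The part of each cell type in the 9 genes was not tested.

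**Figure D4:**
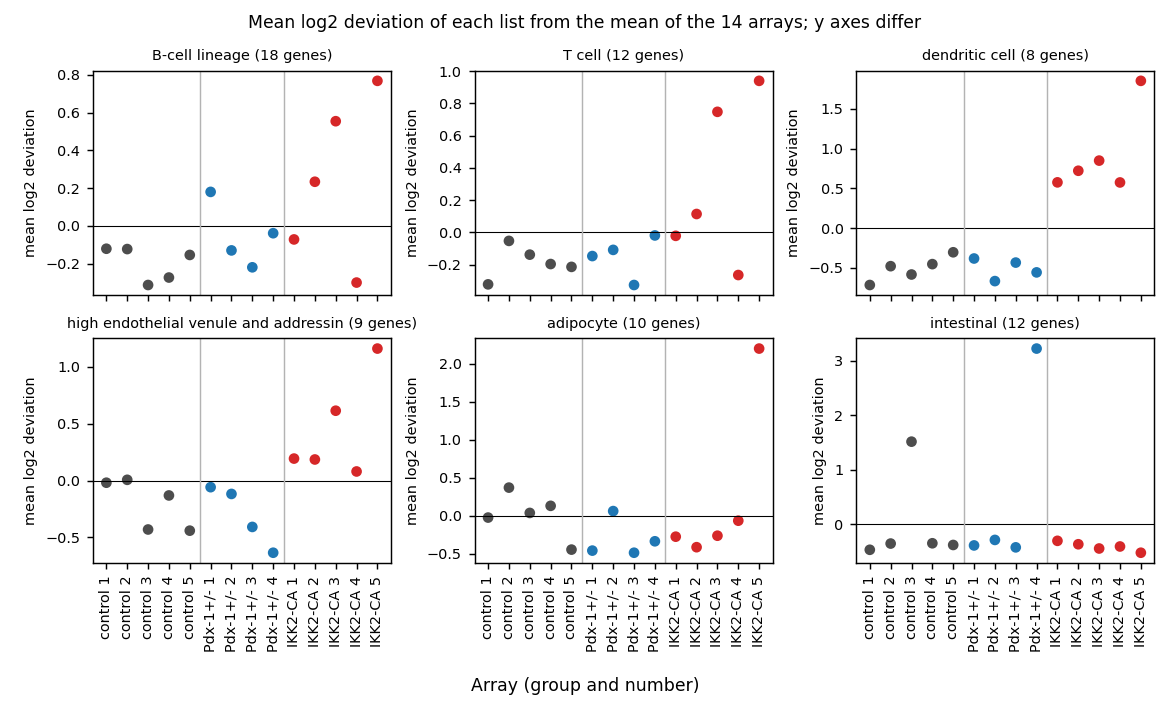
Mean log2 deviation of 6 lists of marker genes from their 14-array means, with arrays on the x axis and a separate y scale for each list. Grey points are control, blue Pdx-1+/- and red IKK2-CA. B-cell and T-cell genes are high on IKK2-CA arrays 3 and 5, dendritic cell genes on all 5 IKK2-CA arrays, adipocyte genes on IKK2-CA array 5, and intestinal genes on Pdx-1+/- array 4 and control array 3.

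The genes with the most similar array patterns differed by member. Likeness was the mean absolute difference between log2 deviations over the 14 arrays, a measure on which smaller is more alike, and was sought for the 8 members that ranged over 1 log2 or more (all but Lta). Group differences and single arrays both enter it. Ms4a1 and Cd79b were each other's most similar gene of all measured (0.23, beside a median over all genes of 0.75 from Ms4a1 and 0.60 from Cd79b). For Cd79b the next were Cd37 (0.26) and Fcer2a (0.28), surface proteins of B cells, and for Ms4a1 Ptpn22 (0.36), a phosphatase of lymphocyte receptors, and Hvcn1 (0.36), a proton channel.

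Cd79a lay nearest to Pou2af1 (0.26), a B-cell transcriptional coactivator, Tst (0.26), a sulphur transferase, and Spib (0.27), a transcription factor of B cells and plasmacytoid dendritic cells. Cr2 lay nearest to Fcmr (0.12), the receptor for IgM, Cd22 (0.12), an inhibitory B-cell receptor, and Gpr174 (0.16). Cxcr5 lay nearest to Tifa (0.07), an adaptor of NF-κB signalling, Apbb1ip (0.11) and Ccdc69 (0.11). The nearest genes of Cxcl13 were Arhgap15 (0.59), Ms4a1 (0.59) and Casp4 (0.60), against a median of 0.91. Likeness is not scaled to a member's own range, which was 3.81 for Cxcl13 and 1.22 for Cxcr5, so distances do not compare between members. The medians over all genes were 0.48 from Cd79a, 0.35 from Cr2, 0.30 from Cxcr5, 0.34 from Ltb and 0.67 from Ccl19.

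Ltb and Ccl19 had neighbours of other kinds. Ltb lay nearest to Ctsw (0.08), a protease of cytotoxic lymphocytes, Rasal3 (0.09), a Ras regulator of T cells, and Cd8b1 (0.10), a chain of the CD8 co-receptor. Ccl19 lay nearest to Fscn1 (0.17), which bundles actin in the extensions of mature dendritic cells, Grap2 (0.18), an adaptor of T-cell receptor signalling, and Ccr7 (0.20). Against control Fscn1 was higher by log2 1.53 (SE 0.23, limma adjusted p = 0.00506) and Grap2 by log2 1.26 (SE 0.24, limma adjusted p = 0.0161), beside 1.49 for Ccl19. Both were picked here for array patterns like that of Ccl19, so a like difference follows from the choice and is not separate evidence.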

How the data were processed

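Islet RNA was labelled by the whole-transcript sense method, per the labels' protocols, for Mouse Gene 1.0 ST arrays. The authors deposited 1 table of RMA signals made in Affymetrix Expression Console, per the labels and the submitters' processing notes. No version or setting of it was given. No label names the log base, and the deposited values were taken as log2 signals because they span 2.16 to 13.96 with close medians. RMA pulls small differences of dim genes together. Signals compare arrays for 1 gene, not genes with each other.

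Of 35556 transcript clusters, 21789 had 1 symbol in the array's gene table. Clusters with several symbols (1621) and clusters it does not list (12146) were set aside. Each of 19938 genes was read from its cluster of highest mean. Between the 2 Ccl19 clusters with equal values, the lower number was taken.

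All genes were fitted with limma 3.58.1 (lmFit, eBayes) in R 4.3.3 as 3 group means over 14 arrays, and the Benjamini-Hochberg adjustment ran over all 19938 genes in each comparison, with calls at 0.05. The fit was tested on simulated data. Array numbers recur in the groups, but after removal of group means 2 of 13 same-number pairs correlated above 0.1 (range −0.39 to 0.36), so no pairing was used. Alternatives were median centring, quantile normalization, trend and robust moderation, fits of the 2 groups compared, a filter on the lowest 30% of genes, every cluster, cluster means, array weights, the array number as a block, and leaving out arrays.

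The members and lists were chosen with earlier results of these data known. Named were the 9 members, and from each neighbouring list up to 4 genes that passed in an IKK2-CA comparison, or else the 2 with the largest difference from Pdx-1+/-. Also named were the 3 genes most like each member. Ltbr, Tnf, Il21, Ebf1, Vpreb3, Glycam1, Chst4, Cd34, Zbtb46 and the array marker genes, where given, were named after their values were seen.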

Additional observations from a re-analysis of the deposited data

Results flagged for a closer look

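Cr2 on Pdx-1+/- array 1 stood far from the other arrays of its group. It read 5.28 against 4.35 on the nearest, a gap of 0.884 of the group's range, past the 95% limit of Dixon's test for 4 arrays. It was the 1 of 27 combinations of gene and group to do so, and chance flags about 1 in 20. The same array was also the highest of its group for Ms4a1, Cd79b, Cxcr5, Cxcl13 and Ccl19, and not for Cd79a, Ltb and Lta. Without it the Cr2 difference between Pdx-1+/- and control was log2 −0.06.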

How the results depend on the processing

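Under 24 alternatives, Ccl19 passed in each against control (log2 1.15 to 1.66, limma adjusted p = 0.00348 to 0.0279). Against Pdx-1+/- it ran from log2 0.97 to 1.52 (limma adjusted p = 0.0302 to 0.485). The count of members that passed against control was 1, became 2 with array weights (Ltb, log2 0.53, limma adjusted p = 0.039), and ran from 1 to 2 with 1 array left out. Against Pdx-1+/- it was 0 and ran from 0 to 1 with 1 array left out (Ccl19). Between Pdx-1+/- and control it was 0 throughout. Differences that turned sign were small beside their errors, and the cause was not tested. With IKK2-CA array 5 and Pdx-1+/- array 4 both left out, the differences from Pdx-1+/- were −0.15 for Ms4a1, −0.0806 for Cd79b, −0.145 for Cr2 and −0.38 for Cxcl13. Array weights gave −0.0681 for Cr2 there. Quantile normalization gave 0.001 for Cd79a in IKK2-CA against control, and median centring 0.0055 for Lta in Pdx-1+/- against control.

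With 1 array left out, the IKK2-CA differences from Pdx-1+/- ran from −0.17 to 0.43 for Ms4a1, −0.10 to 0.49 for Cd79b, −0.0874 to 0.30 for Cr2 and −0.25 to 0.63 for Cxcl13. Against control Cd79a ran from −0.21 to 0.25, Ms4a1 from 0.57 to 1.16, Cr2 from 0.11 to 0.40 and Cxcr5 from 0.18 to 0.48, with each of the last 3 lowest without IKK2-CA array 5. Between Pdx-1+/- and control Cr2 ran from −0.058 to 0.29, Cxcl13 from −0.0517 to 0.90, Cxcr5 from −0.0593 to 0.14, Lta from −0.0791 to 0.0274 and Ccl19 from −0.0005 to 0.23.

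With the array number as a replicate block, 0 members passed against Pdx-1+/-, 1 against control and 0 between Pdx-1+/- and control. Ccl19 was then at log2 1.49 (limma adjusted p = 0.0196) against control and 1.24 (limma adjusted p = 0.256) against Pdx-1+/-, Cr2 at −0.0316 against Pdx-1+/- and Lta at 0.0021 between Pdx-1+/- and control. Over all genes the block left 9, 197 and 9 calls, in the order used above.

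Counts over all genes moved more than the members did. They were 15 against Pdx-1+/-, 448 against control and 19 between Pdx-1+/- and control. Array weights gave 52, 1431 and 73, fits of the 2 groups alone 1 and 241 in the IKK2-CA comparisons, and leaving out 1 array ranges of 2 to 66, 120 to 980 and 9 to 48. Leaving out both arrays named above gave 52 against Pdx-1+/-. A filter on the lowest 30% of genes removed Cr2, Cxcr5 and Lta, for which it gives no value. Dim signals limit what these arrays can show for those genes. The neighbouring lists without IKK2-CA array 5, alone or with Pdx-1+/- array 4, were added after the data were seen. Without array 5 alone, 0 genes of the plasma cell, lymphotoxin and TNF, germinal centre, lymphatic and myeloid lists passed in either IKK2-CA comparison, and the islet genes Slc30a8 and Sst, which fell against control with all arrays, did not pass. Without both arrays Gcsam passed against control, and 2 of the 11 islet endocrine genes fell by limma.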
